A study of Mus musculus with 4 samples.

Results

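The genes described here are 10 transcription factor genes of the B lineage, chosen by name: *Pax5*, *Ebf1*, *Bcl11a*, *Pou2f2*, *Bach2*, *Bcl6*, *Lef1*, *Sox4*, *Runx1* and *Myb*. All 10 passed the filter on low counts, among 14637 genes tested and 55359 gene identifiers counted. They were measured by bulk RNAseq in T8, a leukemia line grown from the pB-ALL of an *Irf4*-/- mouse, so that the controls carry the deletion too. T8 cells received a retrovirus (RV) coding for GFP alone (EV-RV) or for GFP plus IRF4 (IRF4-RV), and still viable cells were collected on the day after transduction, with 2 biological replicates per group. T8 comes from 1 tumor and was established on ST2 stromal cells, the protocol text of the labels names T11 where titles and tissue name T8, and whether GFP+ cells were sorted is not given in the sources used here. IRF4 is the factor that ends the large preB stage and drives light chain rearrangement, and the comparison asked which of the genes that set B-cell identity changed when it was put back.

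B-cell development is run by a small set of transcription factors that act in layers. RUNX1, MYB and SOX4 work in progenitors and keep lymphoid precursors alive and able to enter the lineage. EBF1 and PAX5 commit cells to it, by switching on B-cell genes and silencing those of other lineages. BACH2 and BCL6 are repressors that act at the preB-cell checkpoint and later in germinal centers, where they hold back the plasma cell program, while BCL11A, LEF1 and OCT2 (encoded by *Pou2f2*) support progenitor survival, WNT-linked transcription and the response of B cells to antigen.

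Libraries held between 31230223 and 37817752 counts. *Irf4* itself, the check of the vector, was at 241.9 and 241.0 CPM (counts divided by the scaled library size) in EV-RV and at 2822.1 and 2491.1 in IRF4-RV. Reads from the disrupted locus and from the vector are not separated in these counts. B progenitor markers summed to 4851.2 and 5294.3 CPM in EV-RV and 4276.2 and 4285.7 in IRF4-RV. Of the 8 tested, *Vpreb1* and *Igll1* fell by 1.49 and 1.30 on the log2 scale and *Ptprc* rose by 0.53. *Il7r* fell by 0.29 (edgeR adjusted p = 0.0686), and its log2 fold change ran from -0.41 to -0.19 when any 1 library was dropped. *Cd79a* and *Cd79b* were between 289.6 and 921.9 CPM in every library. By contrast, *Rag1* and *Rag2*, which also define this stage, had at most 1 count in any library. IRF4-RV replicate 2 stood apart in 5 stromal markers, whose summed level was 217.3 CPM against 46.8 and 87.3 in EV-RV and 45.9 in IRF4-RV replicate 1. None of the 5 passed the edgeR test in either direction, at an unadjusted p under 0.05 none did, and DESeq2 called none. The part of stromal RNA in the results was not tested. The log2 fold changes of the 10 genes and the calls in each gene list were also computed without this library and are given with each. T and NK cell markers, of which 6 of 10 had at most 3 counts in each library and 3 were at 0 throughout, summed to 19.8 and 20.4 CPM in EV-RV and 12.9 and 13.3 in IRF4-RV. *Trac* alone made up 18.4 and 19.1 CPM of these in EV-RV and 11.5 in each IRF4-RV library. Myeloid markers, of which 8 of 10 had at most 3 counts in each library and 3 were at 0 throughout, summed to 0.809 and 0.634 CPM in EV-RV and 2.92 and 2.5 in IRF4-RV, and *Ly6g* carried the difference, at 0.03 and 0 CPM against 2.1 and 1.59. Mature B-cell markers summed to 1.41 and 1.24 against 4.55 and 4.75 CPM, mostly through *Cd40* (0 and 0.0634 against 2.48 and 2.58), plasma cell markers to 140.3 and 163.5 against 233.9 and 263.2, and erythroid markers to 4.92 and 5.71 against 5.37 and 6.67. The part of these cell types in the results was not tested either. In bulk RNA, fewer cells of a kind cannot be told apart from less RNA per cell.

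The factors split into a group that rose with IRF4 and a group that did not. *Runx1*, *Sox4*, *Bcl6*, *Bach2*, *Myb* and *Bcl11a* rose, by between 1.24-fold and 1.9-fold. *Pax5*, *Ebf1*, *Lef1* and *Pou2f2* did not pass the test. Thus 6 of the 10 genes were called higher and 0 lower by the quasi-likelihood test of edgeR at an FDR of 0.1 (Benjamini-Hochberg), where 16.0% of all genes tested were called higher, 13.7% lower and 29.7% in either direction. At an unadjusted p under 0.05, 1 of the 10 was lower, and the share of all genes at that cutoff was not computed. DESeq2 called 5 of the 10 higher and 0 lower, against 1957 higher and 1684 lower of all 14637 genes. The median log2 fold change of the 10 genes was 0.47, against 0.0073 over all genes tested. The 2 groups did not overlap for 8 of the 10 genes, 6 of them higher and 2 lower in IRF4-RV, where 61.3% of all genes tested did not overlap, 31.3% higher and 29.9% lower. *Pax5* and *Ebf1* were below 0 in every fit without 1 library, by an amount that varied. Without EV-RV replicate 2, and again without IRF4-RV replicate 1, *Pax5* (-0.59 and -0.60) and *Ebf1* (-0.35 and -0.38) were further below 0. Without EV-RV replicate 1, and again without IRF4-RV replicate 2, *Pax5* (-0.17 and -0.22) and *Ebf1* (-0.13 and -0.12) were nearer to it. A fit without 1 library estimates the variance anew. Its adjusted p-values and calls, where given below, are therefore not comparable with those of another fit.

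**Figure D1:**
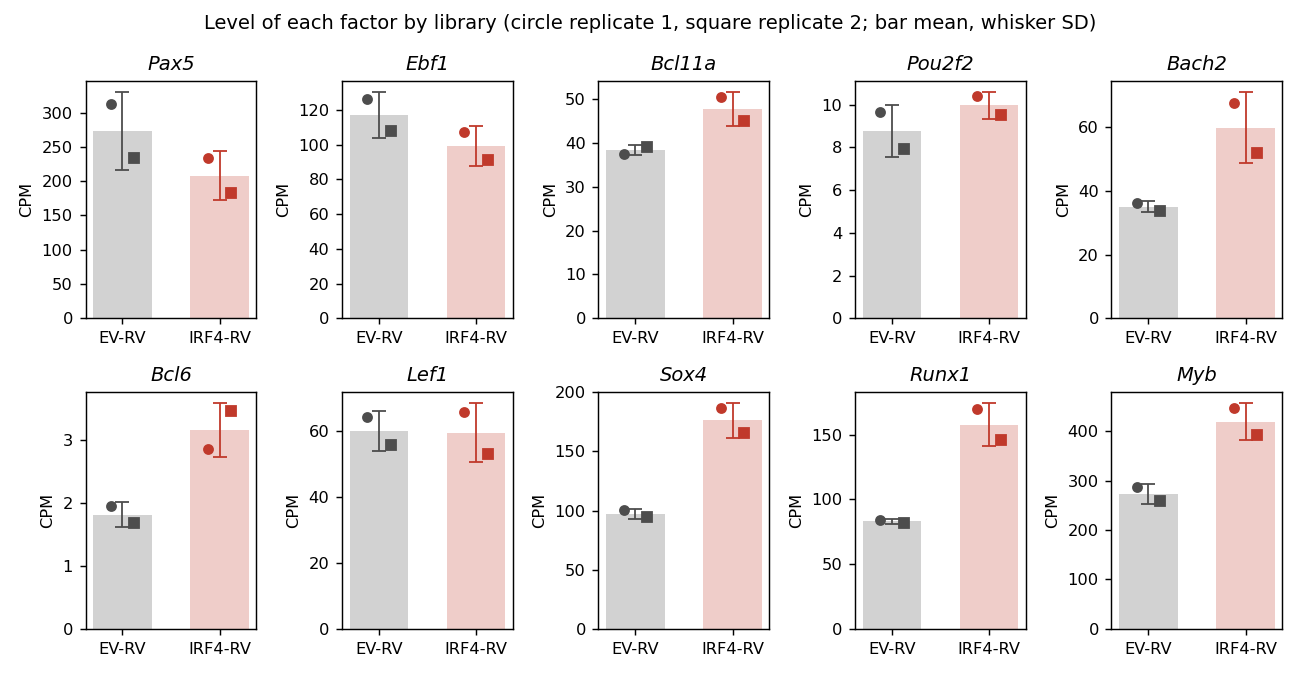
Level of each of the 10 genes in CPM (linear axis from 0) in EV-RV (gray) and IRF4-RV (red), with circles for replicate 1, squares for replicate 2, bars for the mean and whiskers for the SD of 2 libraries. Both IRF4-RV libraries lie above both EV-RV libraries for *Bcl11a*, *Bach2*, *Bcl6*, *Sox4*, *Runx1* and *Myb*, and below them for *Pax5* and *Ebf1*, where the nearest libraries almost touch.

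**Figure D2:**
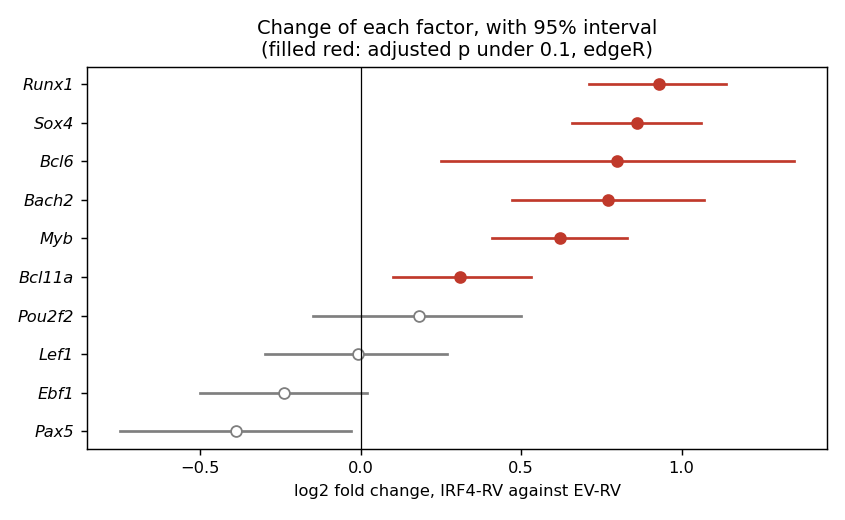
Log2 fold change of IRF4-RV against EV-RV for each gene, with its 95% interval from the edgeR fit. Filled red points have an adjusted p under 0.1 and run from 0.31 for *Bcl11a* to 0.93 for *Runx1*, while the open gray points run from -0.39 for *Pax5* to 0.18 for *Pou2f2*.

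*Pax5* (ENSMUSG00000014030, GRCm38 chr4:44524757-44710487, minus strand) encodes the factor that commits progenitors to the B lineage. It was at 313.3 and 233.6 CPM in EV-RV and at 233.4 and 183.2 in IRF4-RV. The lower control library and the higher IRF4-RV library were thus almost level, and the spread within EV-RV (273.4 ± 56.4 CPM, SD, n = 2) was close to the distance between the means. The log2 fold change was -0.39 (SE 0.156, 95% interval -0.75 to -0.03), with a Benjamini-Hochberg adjusted p of 0.116 in edgeR. Its value turned on which library was in the fit. It was -0.59 without EV-RV replicate 2 and -0.60 without IRF4-RV replicate 1. It was -0.17 without EV-RV replicate 1 and -0.22 without IRF4-RV replicate 2. With libraries scaled by their size alone, the log2 fold change was -0.49 (edgeR adjusted p = 0.0925). A locus on the opposite strand, 5730488B01Rik, overlaps *Pax5* exons over 636 bases and fell by 1.67 on the log2 scale (edgeR adjusted p = 0.000442), from 279 and 229 counts to 88 and 84. The strand setting of the counting is not stated, so reads in the shared stretch cannot be assigned to either gene.

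*Ebf1* (ENSMUSG00000057098, chr11:44617317-45008091, plus strand), which opens B-cell chromatin and acts together with *Pax5*, had the same layout. Its level was 126.4 and 107.8 CPM in EV-RV and 107.4 and 91.1 in IRF4-RV. Again the groups only just failed to overlap. A log2 fold change of -0.24 (SE 0.111, 95% interval -0.50 to 0.02) did not pass the edgeR test (adjusted p = 0.172). Without EV-RV replicate 2 it was -0.35, without IRF4-RV replicate 1 -0.38, and without either of the other libraries at most 0.13 below 0.

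*Bcl11a* (ENSMUSG00000000861, chr11:24078056-24174123, plus strand), a zinc finger gene needed for lymphoid progenitors, was at 37.6 and 39.2 CPM in EV-RV and at 50.5 and 45 in IRF4-RV. Both IRF4-RV libraries were higher than both controls. It rose by 0.31 on the log2 scale (SE 0.0937, 95% interval 0.10 to 0.53, edgeR adjusted p = 0.0476), the smallest change among the 6 genes called. Its log2 fold change was 0.28 without EV-RV replicate 1 and 0.21 without IRF4-RV replicate 1. With scaling by library size alone the call was lost (log2 fold change 0.22, edgeR adjusted p = 0.132).

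*Pou2f2* (ENSMUSG00000008496, chr7:25087344-25179726, minus strand), which encodes the octamer-binding factor OCT2 of B cells, was low at 9.65 and 7.93 CPM in EV-RV and 10.4 and 9.53 in IRF4-RV. The groups overlapped, since the lower IRF4-RV library fell between the controls. The log2 fold change was 0.18 (SE 0.14, 95% interval -0.15 to 0.50, edgeR adjusted p = 0.413), an interval that spans a fold of 0.904 to 1.42.

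Both repressors rose. *Bach2* (ENSMUSG00000040270, chr4:32238804-32586108, plus strand) encodes a leucine zipper repressor that pairs with small MAF proteins. It was at 36.3 and 33.8 CPM in EV-RV and at 67.8 and 52.1 in IRF4-RV. The controls lay close together, and the lower IRF4-RV library was still well above them, while the distance between the IRF4-RV libraries was the wider of the 2 (59.9 ± 11.1 CPM, SD, n = 2). *Bach2* rose by 0.77 on the log2 scale (SE 0.13, 95% interval 0.47 to 1.07, edgeR adjusted p = 0.00467), and when any 1 library was dropped it ranged from 0.55 to 0.96.

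*Bcl6* (ENSMUSG00000022508, chr16:23965052-23988852, minus strand), the repressor that in germinal centers silences *Prdm1* and checkpoint genes, was the least abundant of the 10 genes. It had 65 and 53 counts in EV-RV and 97 and 126 in IRF4-RV, or 1.95, 1.68, 2.86 and 3.46 CPM. Both IRF4-RV libraries were above both controls. The log2 fold change was 0.80 (SE 0.235, edgeR adjusted p = 0.0453), close to that of *Bach2* but with a 95% interval of 0.25 to 1.35. It was 0.70 without EV-RV replicate 2 and 0.66 without IRF4-RV replicate 2. In DESeq2 the call was lost (log2 fold change 0.80, adjusted p = 0.14).

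IRF4 binds DNA weakly on its own and more strongly at composite elements. Such an element can join an ETS site to an IRF site (EICE, searched as GGAA and GAAA with 2 bases of any kind between them) or join IRF sites (ISRE, GAAA and GAAA with 2 bases between them). Others join an AP-1 site to an IRF site (AICE, TGANTCA and GAAA with 4 bases between them, or GAAA directly before TGANTCA). An ISRE or EICE match can overlap the IRF site of an AICE match. These letters were searched on both strands in the 250 bases before each RefSeq transcription start (GRCm38.p6), which gave 16 windows for the 10 genes. EICE was present in 2.3% of all 32851 windows and ISRE in 2.98%, and the AICE forms in 0.0974% and 0.1%. EICE letters stood before a start of *Bach2*, *Bcl6* and *Pou2f2*, that is 3 of 10 genes against 2.68% of all 27025 genes, ISRE letters before a start of *Ebf1* (3.46% of all genes), and AICE letters before none of the 10. The windows of *Bach2* and *Bcl6* are shown because both genes rose, with the match in capitals. Each lies within its gene but in no annotated exon, before an internal start. The match of *Bach2* at chr4:32417185-32417434 is read on the opposite strand of the gene, 17 to 8 bases before the start, and that of *Bcl6* at chr16:23981284-23981533 on the gene's own strand, 28 to 19 bases before it.
Bach2: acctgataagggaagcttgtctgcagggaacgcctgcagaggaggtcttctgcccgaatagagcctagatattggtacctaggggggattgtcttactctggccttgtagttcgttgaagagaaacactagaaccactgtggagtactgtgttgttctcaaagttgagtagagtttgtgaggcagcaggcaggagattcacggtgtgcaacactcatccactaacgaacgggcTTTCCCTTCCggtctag
Bcl6: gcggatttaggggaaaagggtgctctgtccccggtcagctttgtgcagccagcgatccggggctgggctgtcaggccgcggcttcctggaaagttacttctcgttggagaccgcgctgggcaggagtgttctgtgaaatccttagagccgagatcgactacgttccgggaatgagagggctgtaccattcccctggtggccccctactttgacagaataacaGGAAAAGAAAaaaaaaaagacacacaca
For the 2 genes that did not pass the test, 30 bases around the match are shown, for *Pou2f2* at chr7:25132561-25132590 on the minus strand and for *Ebf1* at chr11:44617935-44617964 on the plus strand.
Pou2f2: gccagggtatTTTCCCTTCCgaagggggcg
Ebf1: ttcgttggatTTTCCCTTTCtttttttttc
The letters of *Bach2* and *Pou2f2* are the same 10 bases, although *Bach2* rose and *Pou2f2* did not pass the test. No binding was measured, so a match is a description of the sequence.

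Of the HMG box genes, *Sox4* rose and *Lef1* did not pass the test. *Sox4* (ENSMUSG00000076431, chr13:28948919-28953713, minus strand), needed for pro-B-cell survival, was at 100.1 and 94.2 CPM in EV-RV and at 186.5 and 165.8 in IRF4-RV. The IRF4-RV libraries were far above the controls, at 176.1 ± 14.6 CPM (SD, n = 2) against 97.1 ± 4.2. *Sox4* rose by 0.86 on the log2 scale (SE 0.0865, 95% interval 0.66 to 1.06, edgeR adjusted p = 0.0004), and from 0.75 to 0.95 when any 1 library was dropped.

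*Lef1* (ENSMUSG00000027985, chr3:131110471-131224356, plus strand), the partner of beta-catenin in WNT signaling and a marker of early B cells, was at 64.2 and 55.5 CPM in EV-RV and at 65.7 and 53 in IRF4-RV. Here the IRF4-RV libraries were both the highest and the lowest of the 4. The log2 fold change was -0.01 (SE 0.123, 95% interval -0.30 to 0.27, edgeR adjusted p = 0.951), so that a fold between 0.813 and 1.21 was within the interval. A gene on the opposite strand, Gm43352, shares 1208 bases with *Lef1* exons and had 78 and 63 counts in EV-RV and 53 and 54 in IRF4-RV, and its reads cannot be told apart from those of *Lef1* in that stretch. Other annotated genes that overlap exons of the 10 factors and were counted had at most 13 counts in any library. Gm26735, which lies opposite *Sox4* and shares 2616 of its 4795 exon bases, was not among the identifiers counted. Its reads therefore could not be compared with those of *Sox4*.

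The progenitor factors rose as well. *Runx1* (ENSMUSG00000022952, chr16:92601466-92826149, minus strand), the DNA-binding subunit of core binding factor, was at 84.3 and 81.8 CPM in EV-RV and at 169.6 and 146.0 in IRF4-RV. The controls differed little from each other (83 ± 1.74 CPM, SD, n = 2), and both IRF4-RV libraries were well above them (157.8 ± 16.7). Its log2 fold change of 0.93 (SE 0.0917, 95% interval 0.71 to 1.14, edgeR adjusted p = 0.000367) was the largest of the 10, and 9.82% of all genes tested had a larger change in either direction.

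*Myb* (ENSMUSG00000019982, chr10:21124935-21160984, minus strand), which keeps progenitors proliferating and supports IL-7 receptor expression, was at 286.7 and 258.7 CPM in EV-RV and at 445.7 and 392.6 in IRF4-RV. Both IRF4-RV libraries were above both controls. *Myb* rose by 0.62 on the log2 scale (SE 0.0911, 95% interval 0.41 to 0.83, edgeR adjusted p = 0.00248). Without IRF4-RV replicate 2, the library with the stromal markers, the log2 fold changes of *Runx1*, *Bach2* and *Sox4* were 1.04, 0.96 and 0.95. Those of *Myb*, *Bcl6* and *Bcl11a* were 0.71, 0.66 and 0.40. Those of *Pou2f2*, *Lef1*, *Ebf1* and *Pax5* were then 0.25, 0.14, -0.12 and -0.22.

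Replicates within a group also differed in a shared direction. In EV-RV, replicate 1 was the higher library for 9 of the 10 genes, with *Bcl11a* as the exception, and in IRF4-RV for 9 of 10, with *Bcl6* as the exception. Replicate 1 was the higher library in both groups for 8 of the 10, against 30% of all genes tested. The genes are not independent of each other, and no test was made of this count.

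The genes whose pattern was most like that of *Runx1*, by the distance of log2 CPM centered on each gene over 4 libraries, were *L3mbtl3* (0.0212), *Ano6* (0.036) and *Sema5a* (0.0409), with log2 fold changes of 0.91, 0.96 and 0.95. In all, 17 genes lay within a distance of 0.1.

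Levels between genes were compared as CPM per kilobase of annotated exon. In EV-RV, *Pax5* (30.9 ± 6.37, SD, n = 2) and *Myb* (30.5 ± 2.22) led and could not be put in order, because their libraries overlapped. *Sox4* (20.3 ± 0.876) and *Ebf1* (12 ± 1.35) followed, then *Runx1* (6.9 ± 0.144) and *Lef1* (6.81 ± 0.697), whose libraries overlapped, then *Bach2* (3.53), *Bcl11a* (2.91), *Pou2f2* (1.07) and *Bcl6* (0.271). Of all genes tested, 85.9% had a lower level per length than *Pax5* and 10.4% a lower one than *Bcl6*. In IRF4-RV the order at the top was *Myb* (46.9 ± 4.2), *Sox4* (36.7 ± 3.05), *Pax5* (23.5 ± 4.01) and *Runx1* (13.1 ± 1.39), with no overlap between neighbors, and *Ebf1* (10.2 ± 1.18) came after *Runx1*. *Pax5* thus moved from a place at the top shared with *Myb* to one below *Myb* and *Sox4*, and *Runx1* passed *Ebf1*. By the length of the longest transcript in place of the exon union, *Myb* came before *Pax5* in EV-RV already (73.8 against 34.2), and *Sox4* and *Ebf1* overlapped. In IRF4-RV by that length, the libraries of *Runx1* (26.9) and *Pax5* (26) overlapped, as did those of *Ebf1* and *Lef1*.

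**Figure D3:**
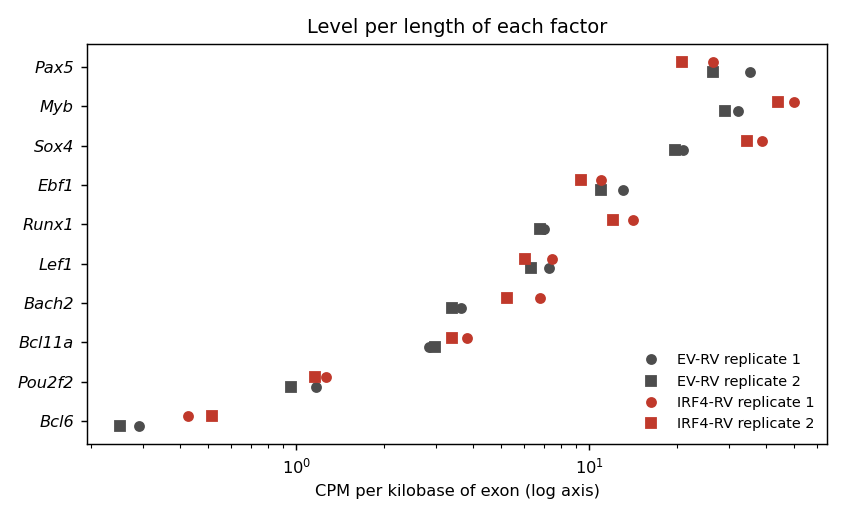
Level of each gene in CPM per kilobase of exon (log axis), with gray points for EV-RV, red points for IRF4-RV, circles for replicate 1 and squares for replicate 2. The genes are ordered by their mean in EV-RV, from *Bcl6* (0.271) to *Pax5* (30.9), and the red points of *Myb*, *Sox4*, *Runx1* and *Bach2* stand to the right of the gray ones.

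Several of the factors share their binding site with relatives. Of 25 such relatives 13 were tested, and 8 of the 25 had at most 3 counts in each library. Of these, 1 rose and 2 fell, or 23.1% of those tested against 29.7% of all genes, and the median log2 fold change was -0.10. The counts without IRF4-RV replicate 2 were also 1 and 2. *Pou2f1*, which encodes the widely expressed octamer factor OCT1, rose by 0.69 (edgeR adjusted p = 0.00492), while *Sox12* fell by 1.71 (0.000571) and *Pax7* fell by 1.21 (0.0213) on the log2 scale. The log2 fold change of *Pax7* ran from -1.45 to -0.93 when any 1 library was dropped. The ratio of *Sox4* to *Sox12*, both per length, was 4.18 and 5.69 in EV-RV and 28.7 and 27.9 in IRF4-RV. *Runx1* was below *Runx3* in both controls, at ratios of 0.575 and 0.622, and above it in both IRF4-RV libraries, at 1.2 and 1.08. *Runx3* itself had a log2 fold change of -0.01 (95% interval -0.21 to 0.20). The ratio of *Myb* to *Mybl2* went from 1.61 and 1.45 to 2.52 and 2.27, and that of *Bach2* to *Bach1* from 1.62 and 1.4 to 2.55 and 2.23, with no overlap of the groups. That of *Pou2f2* to *Pou2f1* was lower in IRF4-RV (0.305 and 0.331 against 0.459 and 0.442), and that of *Lef1* to *Tcf7* overlapped between the groups (1.98 and 2.54 in EV-RV, 2.25 and 2.03 in IRF4-RV). These ratios are given as descriptions, with 2 libraries in each group.

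**Figure D4:**
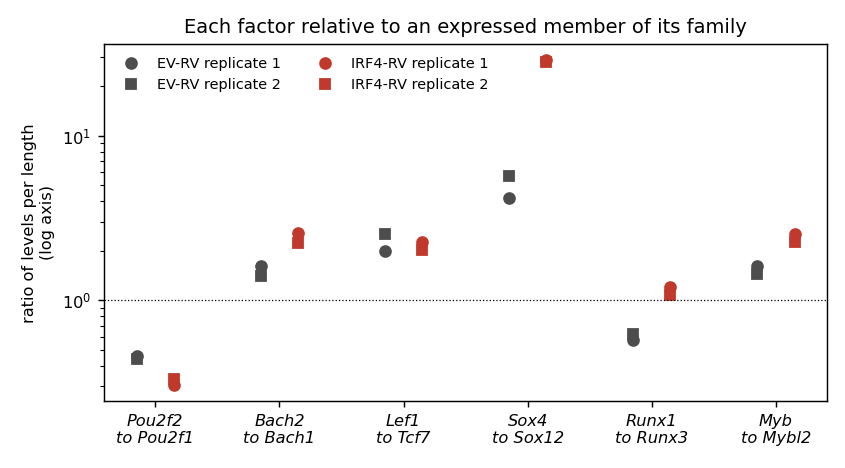
Ratio of each factor to an expressed relative of the same family, both in CPM per kilobase of exon (log axis), with gray for EV-RV, red for IRF4-RV, circles for replicate 1 and squares for replicate 2. The dotted line marks equal levels. *Runx1* crosses it, *Sox4* stands at 28.7 and 27.9 times *Sox12* in IRF4-RV, and the *Lef1* ratios overlap.

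Of 15 genes for cofactors of these proteins, all tested, 3 rose and 2 fell, and the median log2 fold change was 0.12. The share called, 33.3%, was close to the 29.7% of all genes. Without IRF4-RV replicate 2, 4 were called higher and 2 lower. *Pou2af1*, the B-cell coactivator of octamer factors, rose by 0.25 (edgeR adjusted p = 0.0388), and *Tle3* and *Tle4*, Groucho corepressors used by PAX5, LEF1 and RUNX1, rose by 0.40 (0.0428) and 0.42 (0.0172). Their relative *Tle1* fell by 0.73 on the log2 scale (edgeR adjusted p = 0.00159). When any 1 library was dropped, the log2 fold change ran from 0.20 to 0.29 for *Pou2af1* and from 0.24 to 0.53 for *Tle3*. It ran from 0.32 to 0.50 for *Tle4* and from -0.81 to -0.66 for *Tle1*. *Cbfb*, the subunit that RUNX1 binds, had a log2 fold change of -0.12 (95% interval -0.28 to 0.03), *Ctnnb1*, which encodes beta-catenin, of 0.11 (-0.05 to 0.27), and *Bcor*, the corepressor of BCL6, of 0.28 (0.03 to 0.52, edgeR adjusted p = 0.106).

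For the textbook target genes that follow, the shares to set beside each count are again the 16.0% of all genes called higher and the 13.7% called lower. Of 10 genes activated by PAX5 and EBF1, 4 rose and 2 fell, with a median log2 fold change of -0.01, and without IRF4-RV replicate 2 the counts were 3 and 2. *Blk* and *Blnk*, a kinase and an adaptor of preB-cell receptor signaling, rose by 1.86 (edgeR adjusted p = 7.54e-06) and 1.04 (7.64e-05), and *Vpreb3* rose by 0.72 (0.000744), whereas the surrogate light chain genes *Vpreb1* and *Igll1* fell by 1.49 (3.82e-05) and by 1.30 on the log2 scale (5.95e-05). *Cd79a*, *Cd79b* and *Cd72* had log2 fold changes between -0.05 and -0.01, with 95% intervals within -0.22 and 0.15.

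Of 6 genes that PAX5 represses, 5 were tested, 4 rose and 0 fell, with a median log2 fold change of 1.31, where 16.0% of all genes were called higher and 13.7% lower. Without IRF4-RV replicate 2 the counts were also 4 and 0. By edgeR at an unadjusted p under 0.05 none of them was lower. DESeq2 called 3 higher and 0 lower, against 1957 higher and 1684 lower of all 14637 genes. *Flt3*, a receptor of lymphoid progenitors, rose by 2.41 (edgeR adjusted p = 0.00139) from a low level of 0.689 and 0.444 CPM to 2.98 and 3.08. The chemokine gene *Ccl3* rose by 1.65 (4.94e-05), *Notch1*, which drives T-cell fate, by 1.31 (0.000323), and the costimulatory receptor gene *Cd28* by 0.54 (0.073). The log2 fold change of *Cd28* was 0.40 without EV-RV replicate 1 and 0.41 without IRF4-RV replicate 1. *Csf1r*, the myeloid receptor on this list, had at most 3 counts in each library. *Pax5* itself did not pass the test, as described above.

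Of 10 genes repressed by BACH2 or BCL6, 4 rose and 1 fell, with a median log2 fold change of 0.27, where 16.0% of all genes were called higher and 13.7% lower. The counts without IRF4-RV replicate 2 were also 4 and 1. *Prdm1*, the plasma cell factor BLIMP1, rose by 2.13 (edgeR adjusted p = 0.0115) from a low level of 0.24 and 0.285 CPM to 1.36 and 0.961. The cyclin gene *Ccnd2* rose by 1.37 (2.6e-05), the activation marker *Cd69* by 1.09 (0.000474) and *Cdkn2a* by 0.54 (0.00775), while the checkpoint kinase gene *Chek1* fell by 0.42 on the log2 scale (0.018). *Trp53* and *Cdkn1a* had log2 fold changes of -0.07 (95% interval -0.23 to 0.10) and -0.01 (-0.28 to 0.27). Of the other plasma cell markers, *Xbp1* rose by 0.82, *Sdc1* fell by 0.81 on the log2 scale and *Jchain* was at or below 0.603 CPM.

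Of 8 LEF1 and TCF target genes 5 were tested. *Lgr5*, a receptor gene of the WNT pathway, rose by 2.89 (edgeR adjusted p = 6.02e-06). *Nkd1*, a feedback inhibitor of the pathway, fell by 0.90 on the log2 scale (0.0298). Thus 1 rose and 1 fell, and the median was -0.19. When IRF4-RV replicate 2 was dropped, 1 was called higher and 2 lower. *Axin2* had a log2 fold change of -0.63 (95% interval -1.33 to 0.08) and *Ccnd1* of -0.02 (-0.23 to 0.19). That of *Nkd1* was -0.79 without EV-RV replicate 2. Of 5 MYB target genes 4 were tested, of which 1 rose and 3 fell, and the median log2 fold change was -0.50. When IRF4-RV replicate 2 was dropped, 0 were called higher and 3 lower. *Myc* fell by 1.09 (edgeR adjusted p = 0.000133), *Mat2a* by 0.53 (0.00458) and *Bcl2* by 0.46 (0.0264), and *Ccnb1* rose by 0.23 (0.0587). With any 1 library left out, the log2 fold change ran from -0.58 to -0.36 for *Bcl2* and from 0.18 to 0.27 for *Ccnb1*.

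Of 8 other B lymphoid factors, 4 rose and 3 fell, or 87.5% against 29.7% of all genes tested, with a median log2 fold change of 0.24. Dropping IRF4-RV replicate 2 left 4 called higher and 2 lower. The preB-cell factors *Mef2c*, *Foxo1*, *Ikzf3* (AIOLOS) and *Ikzf1* (IKAROS) rose by 1.31 (edgeR adjusted p = 6.47e-05), 1.10 (0.000144), 0.82 (0.00273) and 0.55 (0.00222). *Gfi1* fell by 1.03 (0.000728). *Spi1* (PU.1) fell by 0.45 (0.00854) and *Irf8*, the closest relative of *Irf4*, fell by 0.32 on the log2 scale (0.0152). Without IRF4-RV replicate 2, the log2 fold change of *Irf8* was -0.30. *Tcf3*, which encodes the E2A proteins, had a log2 fold change of -0.07 (95% interval -0.24 to 0.10).

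**Figure D5:**
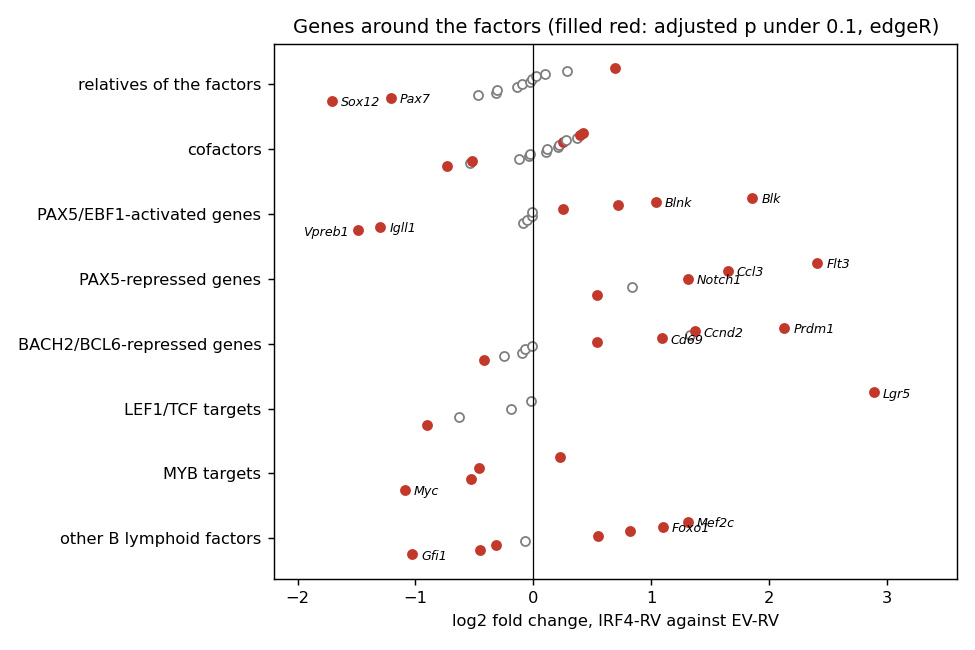
Log2 fold change of IRF4-RV against EV-RV for each tested gene of 8 lists around the factors, one line per list, with filled red points for an adjusted p under 0.1 in edgeR and gene names beside called changes larger than 1. Genes of the PAX5-repressed list lie to the right of 0 (median 1.31), and the other lists have points on both sides.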

How the data were processed

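RNA was sequenced from T8 cells, 2 libraries with EV-RV and 2 with IRF4-RV, grouped by their titles. Per the methods and the submitters' processing notes, reads were aligned to GRCm38 with STAR 2.4.0j and assigned to genes with featureCounts. The authors deposited raw counts per gene, whole numbers without normalization. Strand and multi-mapping settings are not given in the sources used here. Symbols, exons and coordinates were taken from GENCODE M21, which held 52083 of the 55359 identifiers, and promoter sequences from RefSeq.

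Counts passing filterByExpr (14637 genes) were tested in R 4.3.3 with edgeR 4.0.16 (TMM, quasi-likelihood test, Benjamini-Hochberg adjustment over all genes, FDR 0.1, the cutoff of the study). CPM are scaled by TMM factors, and 3 counts equal 0.0824 to 0.0952 CPM. Intervals cover 95%. With 2 libraries per group, p-values set the group difference against a variance estimated from these samples, with information shared across genes. An exact permutation test of 2 against 2 libraries, two-sided, cannot go below p = 0.333, so ratios were not tested. The libraries of a group differed by more than sampling noise (chi-square per degree of freedom 14.1 and 13.1).

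The 10 genes and all lists were chosen with earlier results of these data known. Named are the 10 genes, *Irf4*, list members and the 3 genes closest in pattern to the factor with the largest change. *Rag1*, *Xbp1* and other markers come from the marker lists. Some list members are counted but not reported here by name. On simulated data with the sample sizes and 14637 genes, 200 of them changed, edgeR recovered 74.7% of genes changed by 1 and 94.8% of those changed by 2 on the log2 scale, and 15.1% of its calls were false. No smaller change was simulated, so recovery at the size of the 10 genes (-0.39 to 0.93) is not known. The false share depends on how many genes change, and 4349 were called in the real data. Alternatives were DESeq2 1.42.0, other size factors, another filter, an FDR of 0.05, a replicate block, each library left out and another gene length.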

Additional observations from a re-analysis of the deposited data

How the results depend on the processing

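Of 210 alternative values, 182 stayed the same, and of 100 log2 fold changes of the 10 genes, 83 did. For a log2 fold change this meant the same direction and side of the threshold. For a count of calls, higher and lower together, it meant staying within 1.5 times, and for a rank it meant no move. The size of a log2 fold change was not part of this, and 10 of the 100 differ in the FDR alone. *Runx1*, *Sox4*, *Bach2* and *Myb* were called higher under every alternative run. With library size alone, *Pax5* had -0.49 (adjusted p = 0.0925) and *Bcl11a* 0.22 (0.132), the median of all genes moved from 0.0073 to -0.0832, and 37.8% of calls over all genes were higher against 53.8%. DESeq2 gave 0.80 (0.14) for *Bcl6*. With all genes of at least 1 count, *Pax5* had -0.39 (0.000215) and *Ebf1* -0.24 (0.081). Their log2 fold changes were the same as with the filter, while the SE was smaller, at 0.0894 against 0.156 for *Pax5*. Same-numbered libraries deviated together weakly (r = 0.26 across genes), and the labels name no shared batch. A fit with the replicate number as a block made 6394 calls over all genes against 4349, and included all of the latter. It made 10 calls among cofactors, and its edgeR adjusted p-values were 9.38e-11 for *Pax5* (-0.39) and 0.000829 for *Ebf1* (-0.24). Of the calls of such a fit on simulated data, 22% were false. The simulated libraries held no effect shared by replicate number, so they cannot judge this fit on the real data. Leaving out each library gave -0.60 to -0.17 for *Pax5*, -0.38 to -0.12 for *Ebf1*, 0.21 to 0.40 for *Bcl11a*, 0.66 to 0.91 for *Bcl6* and -0.20 to 0.14 for *Lef1*, which was above 0 without EV-RV replicate 1 (0.09) and without IRF4-RV replicate 2 (0.14). Calls then numbered 2 to 5 among relatives, 2 to 6 among cofactors, 1 to 3 among LEF1 and TCF targets and 2 to 4 among MYB targets, and a lone library was assumed to vary like the other group. By the longest transcript, the order in EV-RV had *Myb* at 1, *Pax5* at 2, *Lef1* at 5, *Runx1* at 6, *Bcl11a* at 7 and *Bach2* at 8. Beyond these values the causes were not tested. *Bcl6* had the fewest counts of the 10 genes, 53 to 126 in a library.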
